A study of Homo sapiens with 13 samples.

Results

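Ribonucleotide reductase and the enzymes that supply and guard DNA precursors (dNTPs) were followed in the established human colon cancer line SW480. The cells had 6 h with DFO, Deferasirox, OICR623 or solvent. The 9 genes were chosen by symbol: RRM1, RRM2 and RRM2B, which encode the reductase, and TYMS, TK1, DCK, DUT, SAMHD1 and DCTD. Each was represented by the transcript cluster mapped to its symbol, and all 9 had exactly 1 such cluster among the 18404 named genes of the table. The study hybridised RNA to 13 arrays (Affymetrix Human Gene 1.0 ST), whose probes lie along the whole transcript. The groups were DFO (deferoxamine) at 100 mM (n = 4), Deferasirox at 50 mM (n = 3), OICR623 at 10 mM (n = 2) and the solvent DMSO at 0.1 percent (n = 4). The doses and their unit are printed as labelled, although millimolar amounts would be unusually high for cultured cells, and a slip in the unit could not be checked. The clinic uses DFO and Deferasirox as iron chelators, whereas for OICR623 only a code name is given, and replicates came from independent experiments according to the series text. All 4 groups are 1 cell line under the same 6 h protocol, so the data hold no later time and no second line.

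Ribonucleotide reductase converts ribonucleotides to deoxyribonucleotides, the rate-limiting step in making DNA precursors. RRM1 is its large, catalytic subunit, and RRM2 is the small subunit of dividing cells, which holds an iron centre and a tyrosyl radical that the reaction needs. Iron chelators are known to inactivate the enzyme by depriving this centre of iron, an action on the protein that an mRNA array does not measure.

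The reductase subunits RRM1 and RRM2 and the kinase TK1 are genes transcribed mainly as cells enter S phase, and CCAAT boxes are known elements of the RRM2 and TK1 promoters. Promoter windows from RefSeq (GRCh38.p14, 250 bases before to 50 bases after a transcript start) were matched by symbol for 8 of the 9 genes, in 14 windows. The windows of these 3 genes are shown because RRM2 and TK1 had the highest differences from DMSO under DFO and Deferasirox and RRM1 is the partner subunit. Each is written 5′ to 3′ on the strand of its gene, with the letters CCAAT, or ATTGG where the box lies in the opposite orientation, in capitals.
RRM1, chr11:4094435-4094734, plus strand: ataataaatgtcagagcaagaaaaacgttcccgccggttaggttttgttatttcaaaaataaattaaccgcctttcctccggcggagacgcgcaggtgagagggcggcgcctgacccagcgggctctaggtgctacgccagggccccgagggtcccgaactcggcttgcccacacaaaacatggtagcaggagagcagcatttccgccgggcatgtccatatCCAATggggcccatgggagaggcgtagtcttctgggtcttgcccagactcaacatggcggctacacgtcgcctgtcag
RRM2, the second of its 2 windows, chr2:10122489-10122788, plus strand: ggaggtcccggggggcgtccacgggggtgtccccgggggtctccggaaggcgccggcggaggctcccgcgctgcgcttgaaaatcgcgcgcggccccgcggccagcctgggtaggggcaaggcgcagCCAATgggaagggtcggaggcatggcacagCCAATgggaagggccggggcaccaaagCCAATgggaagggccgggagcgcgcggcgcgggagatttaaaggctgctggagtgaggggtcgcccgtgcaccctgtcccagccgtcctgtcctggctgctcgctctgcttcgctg
TK1, the second of its 2 windows, chr17:78187003-78187302, minus strand: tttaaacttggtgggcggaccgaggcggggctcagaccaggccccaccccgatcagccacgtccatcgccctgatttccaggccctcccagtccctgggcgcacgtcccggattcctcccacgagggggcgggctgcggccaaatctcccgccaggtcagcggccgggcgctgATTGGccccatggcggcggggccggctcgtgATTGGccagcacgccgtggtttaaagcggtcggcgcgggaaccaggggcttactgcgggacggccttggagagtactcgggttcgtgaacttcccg
The RRM2 window held 3 CCAAT boxes in the sense orientation, at bases 128 to 132, 158 to 162 and 185 to 189. The TK1 window held 2 in the opposite orientation, at bases 174 to 178 and 205 to 209, and the RRM1 window held 1 at bases 223 to 227. The first windows of RRM2 and TK1 are not printed. That of RRM2 held 1 CCAAT box, at bases 2 to 6, and that of TK1 held none. Counted by window on both strands, CCAAT stood in 5 of the 14 windows (of RRM1, RRM2, TK1 and SAMHD1) and in 34.6 percent of all 35116 windows of this length. The E2F motif TTTNNCGC stood in 3 of the 14 (of TYMS, DCK and DUT) and in 6.89 percent of all, the cell cycle element TTTGAA in 2 (of RRM1 and DUT) and in 15.2 percent, and the hypoxia response core ACGTG in 7 and in 21.4 percent. Windows of 1 gene can overlap, and RRM2B was not scanned. These matches describe letters in a window and were not tied to binding or to any change.

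The arrays fell into 3 levels of overall signal, and every value below has to be read within them. The medians of the 13 arrays, on the deposited log2 scale, were 7.17 to 7.19 in DFO 1 and DMSO 1 (the high level) and 6.52 to 6.55 in DFO 4, Deferasirox 3 and DMSO 4 (the low level). The remaining 8, including both OICR623 arrays, had medians of 6.64 to 6.69 (the middle level). DFO 1 and DMSO 1 also held exactly the same deposited value in 8530 of 32321 rows, or 26.4 percent. Other pairs within a level shared 5 to 35 rows (28 pairs of the middle level) or 85 to 107 rows (3 pairs of the low level), and the 46 pairs of arrays from different levels shared 0. The cause of these identical values was not tested, and the differences between DFO and DMSO are given with and without this pair where the call turns on it. Of 10 colon epithelial markers, 6 (EPCAM, KRT8, KRT18, KRT19, CDX2 and ASCL2) lay above the array's median gene on all 13 arrays. CDH1 and LGR5 lay below it on all, while VIL1 lay above it on only 2 arrays and CDX1 on only 1. No leukocyte or endothelial marker, of 3 each, lay above it on every array, and 1 of 5 fibroblast markers (COL1A1) did. In RNA from whole cultures, fewer cells in a cycle phase and less RNA per cell cannot be told apart.

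All 9 genes differed more between the high level and the other arrays than under any compound. The shift of the high level against the middle level, fitted with the groups, ranged from 0.51 for DCTD to 1.64 for RRM2B on the log2 scale, and that of the low level ranged from -0.17 to 0.15. The differences below were therefore estimated with limma, with 1 mean per group and the level as a block over all 13 arrays. Calling a gene required an adjusted p (Benjamini-Hochberg, over the 18404 genes) under 0.05, and intervals are 95 percent intervals of a single difference, not adjusted for the number of genes. Without the block, the standard errors of the 9 genes against DMSO were 0.18 to 0.48 and none of the 9 was called in any comparison, with 0.245, 0.234 and 0.038 percent of all genes called under DFO, Deferasirox and OICR623 and 0 percent between compounds.

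**Figure D1:**
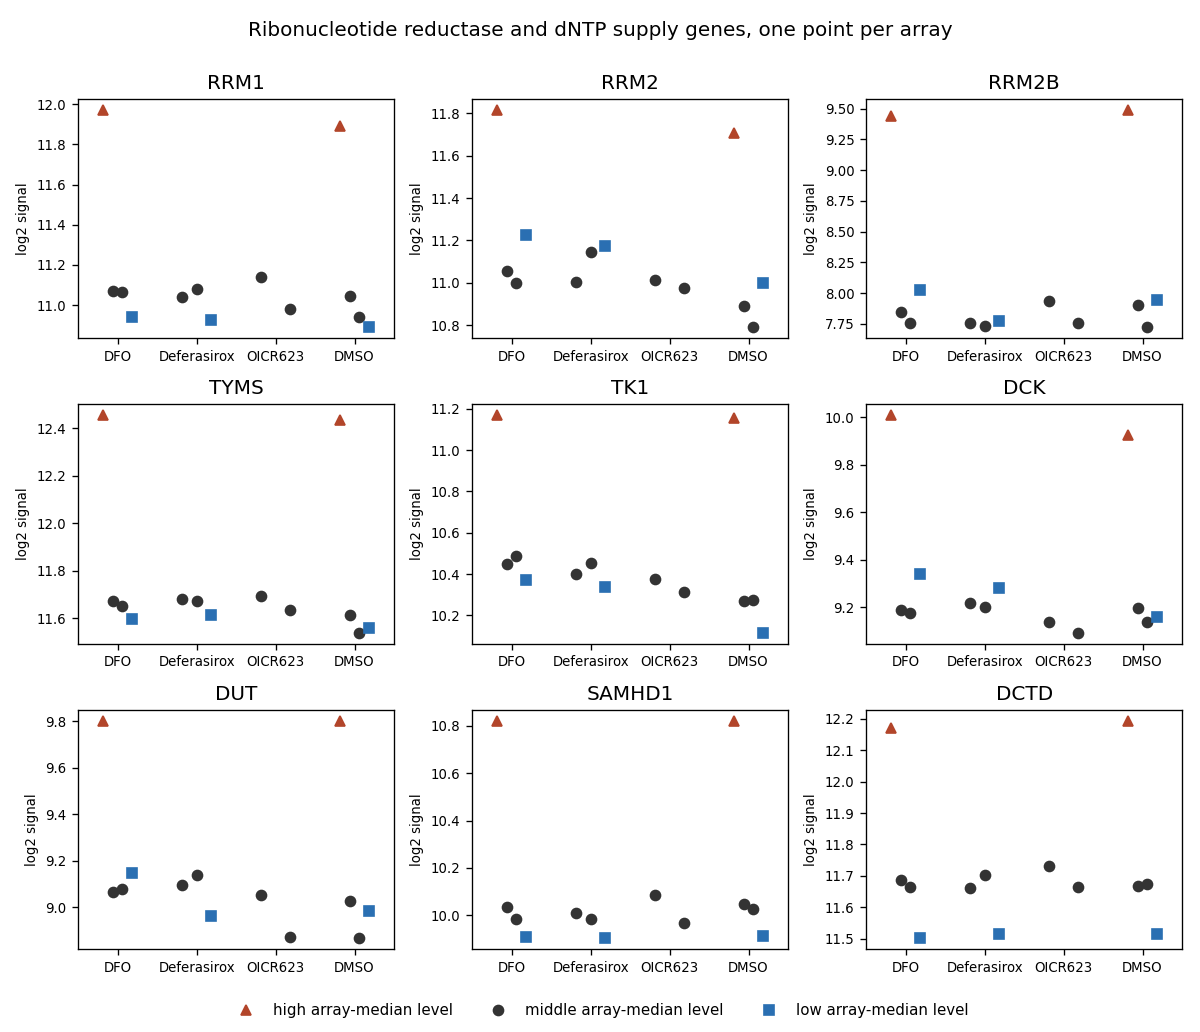
Log2 signal (y axis) of each of the 9 genes on each array, by group (x axis), with the marker showing the array-median level (triangle high, circle middle, square low). DFO 1 and DMSO 1 lie above all other arrays for all 9 genes, and scales differ between panels.

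RRM2, the iron-containing small subunit, was the only one of the 9 genes called against DMSO. Its log2 signal was 11.82, 11.06, 11.00 and 11.23 on DFO arrays 1 to 4, 11.01, 11.15 and 11.17 on Deferasirox arrays 1 to 3, and 11.01 and 10.98 on the OICR623 arrays. DMSO arrays 1 to 4 had 11.71, 10.89, 10.79 and 11.00. Within each level, every treated array lay above every DMSO array, while across levels the groups overlapped. Under Deferasirox RRM2 rose by 0.20 on the log2 scale, or 1.15-fold (SE 0.05, interval 0.09 to 0.32, limma adjusted p = 0.040). The difference under DFO was 0.18, or 1.13-fold (SE 0.05, interval 0.08 to 0.28, adjusted p = 0.053), and under OICR623 it was 0.14 (SE 0.06, interval 0.01 to 0.27, adjusted p = 0.43), and neither was called.

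These RRM2 differences recurred level by level but stood close to the threshold. Against DMSO arrays of the same level, DFO arrays differed by 0.11 in the high, 0.19 in the middle and 0.23 in the low level. Deferasirox arrays differed by 0.24 in the middle and 0.18 in the low level, and OICR623 arrays by 0.15 in the middle level. The call under Deferasirox was lost in 10 of 13 fits that each left out 1 array, with differences of 0.16 to 0.23 and adjusted p of 0.048 to 0.15 (limma). It was kept only without DMSO 1, DFO 1 or DFO 4. Without the level as a block the difference was 0.01 (adjusted p = 0.99), and with the replicate number as the block it was -0.01 (adjusted p = 0.96). The replicate number groups Deferasirox 1 and Deferasirox 3 with DMSO arrays of another level.

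RRM1, the catalytic subunit, was not called under any compound. Its signal was 11.97, 11.07, 11.06 and 10.94 in DFO, 11.04, 11.08 and 10.93 in Deferasirox, 11.14 and 10.98 in OICR623, and 11.89, 11.05, 10.94 and 10.89 in DMSO. The DFO arrays lay above the DMSO arrays within each level, whereas the Deferasirox and OICR623 arrays overlapped with DMSO in the middle level. The differences were 0.07 under DFO, 0.06 under Deferasirox and 0.06 under OICR623, with intervals that together ran from -0.06 to 0.19. None was called (limma adjusted p = 0.51, 0.61 and 0.78).

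RRM2B, the small subunit that is induced by DNA damage and supplies dNTPs outside S phase, was not called under any compound. Its signal was 9.44, 7.85, 7.75 and 8.02 in DFO, 7.76, 7.73 and 7.77 in Deferasirox, 7.94 and 7.76 in OICR623, and 9.49, 7.90, 7.72 and 7.94 in DMSO. The groups overlapped in the middle level under each compound. The difference was 0.00 under DFO (interval -0.13 to 0.13), -0.11 under Deferasirox (interval -0.25 to 0.04) and 0.03 under OICR623 (interval -0.14 to 0.19). RRM2B was also the member most affected by the level, and without the block its value under Deferasirox was -0.51 (SE 0.42).

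**Figure D2:**
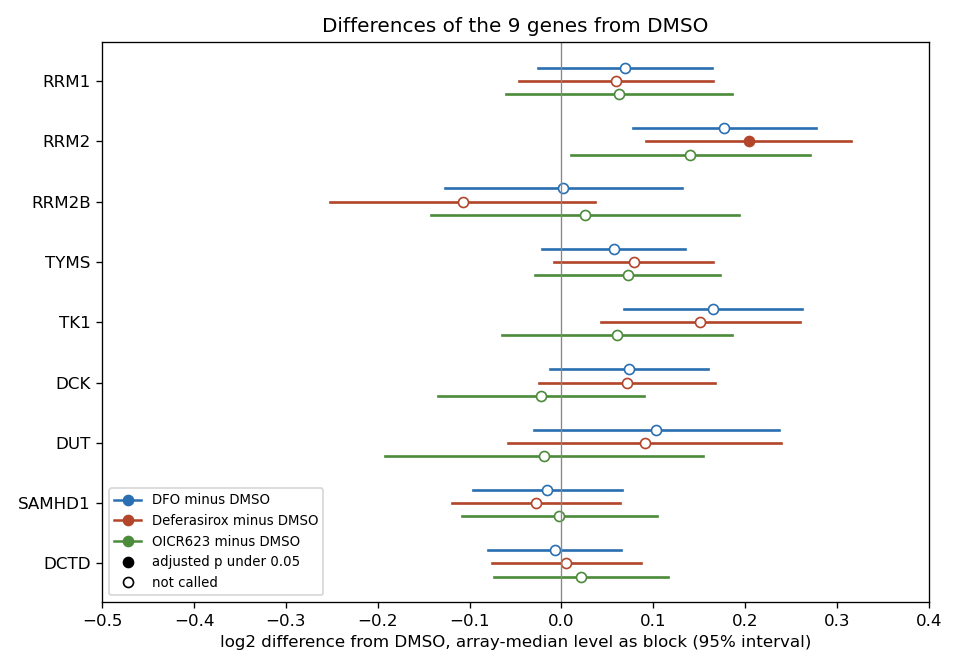
Log2 difference from DMSO (x axis) of each gene (y axis) under DFO, Deferasirox and OICR623, with the array-median level as a block and 95 percent intervals as bars. Filled points are called at an adjusted p under 0.05. The single filled point is RRM2 under Deferasirox at 0.20, and for TK1 the intervals under DFO and Deferasirox also lie above 0.

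TK1, the S-phase kinase that salvages thymidine, came second to RRM2 among the 9 genes under DFO and Deferasirox. Its signal was 11.17, 10.45, 10.49 and 10.37 in DFO, 10.40, 10.45 and 10.34 in Deferasirox, 10.37 and 10.31 in OICR623, and 11.15, 10.27, 10.27 and 10.12 in DMSO. All treated arrays lay above the DMSO arrays of their own level. The difference was 0.17 under DFO (SE 0.04, interval 0.07 to 0.26, limma adjusted p = 0.063), 0.15 under Deferasirox (SE 0.05, interval 0.04 to 0.26, adjusted p = 0.11) and 0.06 under OICR623 (SE 0.06, interval -0.07 to 0.19, adjusted p = 0.80). In the high level, which is the pair with the identical values, DFO and DMSO differed by 0.01, against 0.20 in the middle and 0.25 in the low level. Leaving out DMSO 1 or DFO 1, either of which removes that pair from the comparison, TK1 was called under DFO, at 0.22 (SE 0.04, adjusted p = 0.020). TK1 under Deferasirox was then also called, at 0.18 (SE 0.04, adjusted p = 0.045). RRM2 under DFO was then 0.20 (SE 0.05, adjusted p = 0.080) and was not called.

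**Figure D3:**
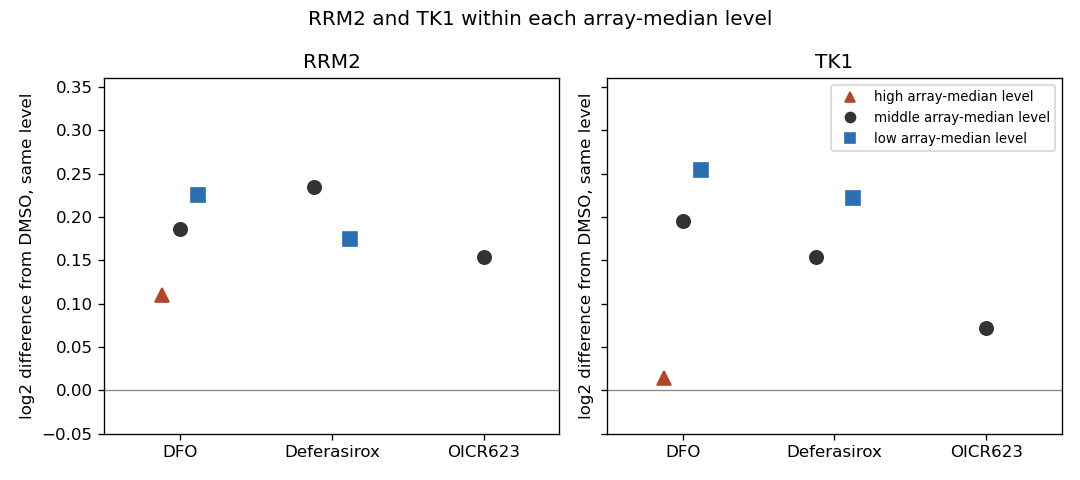
Log2 difference from the DMSO arrays of the same array-median level (y axis) for RRM2 and TK1 under each compound (x axis). The high and low levels hold 1 array per group and the middle level 2. All points lie above 0, and the lowest are those of the high level under DFO, 0.11 for RRM2 and 0.01 for TK1.

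TYMS, which makes thymidylate from dUMP, had small differences that nevertheless ran the same way on every array within its level. Its values outside the high level were 11.67, 11.65 and 11.60 in DFO, 11.68, 11.67 and 11.61 in Deferasirox, 11.70 and 11.63 in OICR623, and 11.61, 11.54 and 11.56 in DMSO. In the high level it was 12.46 in DFO and 12.44 in DMSO. The differences were 0.06, 0.08 and 0.07 under DFO, Deferasirox and OICR623, none called (limma adjusted p = 0.51, 0.34 and 0.65).

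The remaining 4 genes showed no called difference. DCK, which phosphorylates deoxycytidine, had 10.01, 9.19, 9.18 and 9.34 in DFO, 9.22, 9.20 and 9.28 in Deferasirox, 9.14 and 9.09 in OICR623, and 9.93, 9.20, 9.14 and 9.16 in DMSO. Its differences were 0.07 under DFO, 0.07 under Deferasirox and -0.02 under OICR623. DUT, which hydrolyses dUTP and so keeps uracil out of DNA, differed by 0.10, 0.09 and -0.02, with intervals that together ran from -0.19 to 0.24. SAMHD1, which breaks dNTPs down, differed by -0.02, -0.03 and -0.00, and its value of 10.82 was exactly the same in DFO 1 and DMSO 1, the only 1 of the 9 genes for which this held. DCTD, which makes dUMP from dCMP and so feeds TYMS, differed by -0.01, 0.01 and 0.02 and had the narrowest intervals, together from -0.08 to 0.12.

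Counted over the 9 genes, 0 were called under DFO, 1 under Deferasirox and 0 under OICR623 with limma, against 4.6, 5.84 and 0.734 percent of all 18404 genes. At an unadjusted p under 0.05 there were 2 (RRM2 and TK1), 2 (RRM2 and TK1) and 1 (RRM2), against 15.7, 18 and 10.7 percent of all genes. A count of 1 or 2 in 9 is near these backgrounds. The median difference of the 9 was 0.07 under DFO, 0.07 under Deferasirox and 0.03 under OICR623, where the median of all genes was 0.00 in each, and 7, 7 and 6 of the 9 differences were above 0, against 51.1, 51 and 51.5 percent of all genes. Without the block the medians of the 9 were 0.07, -0.13 and -0.13, with 7, 1 and 0 differences above 0. The medians of all genes were then 0.00, -0.15 and -0.11, with 51.1, 11.3 and 22.3 percent above 0. DFO arrays lay above DMSO arrays in every level that holds both for 4 genes (RRM1, RRM2, TYMS and TK1), against 7.61 percent of all genes. Deferasirox arrays did so for 4 (RRM2, TYMS, TK1 and DCK), against 15.6 percent, and lay below for SAMHD1, against 15.1 percent. OICR623 arrays, which share only the middle level with DMSO, did so for 3 (RRM2, TYMS and TK1), against 17.1 percent. By size, the RRM2 difference ranked above 91.6 percent of all genes under DFO, 91.3 percent under Deferasirox and 83.3 percent under OICR623.

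Between compounds, no pair was tested at a matched dose, and the values are given side by side. The fitted RRM2 level at the middle array level was 11.03 in DFO, 11.06 in Deferasirox, 10.99 in OICR623 and 10.85 in DMSO, with a residual SD of 0.06. Deferasirox minus DFO was 0.03 (interval -0.09 to 0.14), OICR623 minus DFO was -0.04 (interval -0.17 to 0.09) and OICR623 minus Deferasirox was -0.06 (interval -0.20 to 0.07), so neighbouring treated groups did not differ beyond their spread. TK1 had fitted levels of 10.45 in DFO, 10.44 in Deferasirox, 10.34 in OICR623 and 10.28 in DMSO, and its widest gap between compounds was OICR623 minus DFO at -0.10 (interval -0.23 to 0.02). In none of the 3 pairs was any of the 9 genes called with limma, nor did any have an unadjusted p under 0.05. Of all genes, 31 were called between OICR623 and DFO (0.168 percent), 8 between Deferasirox and DFO (0.0435 percent) and 16 between OICR623 and Deferasirox (0.0869 percent), and 5.67, 10 and 8.54 percent had an unadjusted p under 0.05 in these pairs. These missed calls do not show that the compounds act alike, since the intervals of the 9 genes reached as far as -0.30 and 0.30.

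Deoxynucleotide supply also depends on pathways upstream of the reductase, and almost all of their genes were uncalled, as were most of all genes. The shares of all genes called under DFO, Deferasirox and OICR623 were 4.6, 5.84 and 0.734 percent. No gene of de novo pyrimidine synthesis (0 of 5) or of the folate and thymidylate cycle (0 of 8) was called under any compound, with limma. Of 12 genes of de novo purine synthesis, 1 rose under Deferasirox, PRPS2 (0.19, adjusted p = 0.026), which makes the ribose donor, and 0 were called under DFO or OICR623. The PRPS2 call held in 7 of 13 fits that left out 1 array. CAD, the first enzyme of pyrimidine synthesis, differed by -0.01, 0.01 and 0.03 under DFO, Deferasirox and OICR623. The serine hydroxymethyltransferase SHMT2 differed by 0.09, 0.10 and 0.02. Its value of 12.53 was the same in DFO 1 and DMSO 1, and DFO exceeded DMSO by 0.10 in the middle level. In the low level SHMT2 had 12.12 in DFO 4 and 11.95 in DMSO 4. DTYMK, which phosphorylates dTMP, differed by -0.01, -0.00 and -0.00. These lists were chosen with earlier results of these data known, so their counts are a description.

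In salvage, kinases and breakdown, single genes were called. Of all genes, 4.6, 5.84 and 0.734 percent were called under DFO, Deferasirox and OICR623, and the lists were not tested against these shares. Of 15 salvage and uptake genes, the uridine-cytidine kinase UCK1 rose by 0.19 under DFO (limma adjusted p = 0.0059) and by 0.19 under Deferasirox (adjusted p = 0.010). The nucleoside transporter gene SLC29A2 fell by 0.28 under DFO (adjusted p = 0.033). Among 11 nucleotide kinases, AK4, a mitochondrial adenylate kinase that is a known target of hypoxia-inducible factor, rose by 0.45 under DFO and 0.49 under Deferasirox (adjusted p = 0.0036 and 0.0038), and was 0.28 under OICR623 (adjusted p = 0.26). Among 9 breakdown genes, the ecto-nucleotidase NT5E rose by 0.67 under Deferasirox (adjusted p = 0.0012) and by 0.32 under DFO (adjusted p = 0.047), and was 0.33 under OICR623 (adjusted p = 0.24). The NT5E call under DFO held in 4 of 13 fits that left out 1 array, the SLC29A2 call in 7 of 13 and the UCK1 call under Deferasirox in 11 of 13, while the 2 AK4 calls held in all 13.

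The reductase is recharged by thioredoxin or glutaredoxin and needs iron for its small subunit. Of 7 electron donor genes, GLRX, a glutaredoxin, rose by 0.41 under Deferasirox (limma adjusted p = 0.00080) and was 0.17 under DFO (adjusted p = 0.062) and 0.15 under OICR623 (adjusted p = 0.39). Thioredoxin (TXN) differed by -0.04, 0.06 and 0.04 and its reductase TXNRD1 by -0.08, -0.13 and -0.08 under DFO, Deferasirox and OICR623, none called. Of 9 genes for iron and cofactor delivery, the transferrin receptor TFRC, whose mRNA is known to be stabilised when iron is low, was the only one called. TFRC rose by 0.22 under DFO (adjusted p = 0.018), by 0.23 under Deferasirox (adjusted p = 0.023) and by 0.32 under OICR623 (adjusted p = 0.045). The DFO call held in 9, the Deferasirox call in 8 and the OICR623 call in 1 of 13 fits that left out 1 array. With the replicate number as the block, which groups OICR623 1 with a DMSO array of another level, the OICR623 difference was -0.12.

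Several genes of RRM2 transcription and turnover changed under DFO and Deferasirox, in both directions. CCNF encodes cyclin F, which is known to direct RRM2 protein to degradation in G2. Its signal was 8.82, 8.07, 8.20 and 7.97 in DFO, 8.16, 8.21 and 7.99 in Deferasirox, 8.36 and 8.41 in OICR623, and 9.53, 8.56, 8.73 and 8.54 in DMSO. Every treated array lay below every DMSO array of its level. CCNF fell by 0.58 under DFO (SE 0.05, limma adjusted p = 8.7e-05) and by 0.51 under Deferasirox (SE 0.06, adjusted p = 0.00047), and its difference under OICR623 was -0.30 (SE 0.07, adjusted p = 0.10). E2F7, a transcriptional repressor of the E2F family, had 10.29, 9.32, 9.20 and 9.62 in DFO, 9.22, 9.20 and 9.45 in Deferasirox, 9.11 and 8.86 in OICR623, and 9.66, 8.81, 8.62 and 8.77 in DMSO. All treated arrays were above the DMSO arrays of their level, and E2F7 rose by 0.64 under DFO and 0.55 under Deferasirox (adjusted p = 0.00035 and 0.0020), with 0.32 under OICR623 (adjusted p = 0.21).

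Of the 16 genes of this list, 3 rose and 3 fell under DFO, 3 rose and 2 fell under Deferasirox, and 0 were called under OICR623. Of all genes, 4.6, 5.84 and 0.734 percent were called in these comparisons. The activators E2F1 and E2F2 rose under DFO, by 0.30 and 0.42, and under Deferasirox, by 0.26 and 0.29. FZR1, which encodes Cdh1 and also directs RRM2 degradation, fell by 0.33 under DFO (limma adjusted p = 0.0040), with -0.20 under Deferasirox (adjusted p = 0.080). E2F5 fell by 0.31 under DFO and E2F4 fell by 0.17 under Deferasirox. The E2F1 call under Deferasirox held in 8 of 13 fits that left out 1 array and the E2F2 call in 9 of 13, while the calls of CCNF and E2F7 held in all 13 under both compounds. Of the 16 named list calls under DFO, here and in the other lists, 9 held with the replicate number as the block on the DFO and DMSO arrays alone, CCNF (adjusted p = 0.0029) and E2F7 (adjusted p = 0.0054) among them. Of the 14 named list calls under Deferasirox, 0 held with that block on the Deferasirox and DMSO arrays alone. With that block over all arrays, or with no block, 0 of the 16 under DFO and 0 of the 14 under Deferasirox held. In the middle level alone, 3 of the 16 and 5 of the 14 held.

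Replication genes, which are transcribed in the same cell cycle window as the reductase, had small differences that lay nearly all above 0. All 24 replication fork and origin genes had differences above 0 under DFO, 23 under Deferasirox and 21 under OICR623, with medians of 0.11, 0.09 and 0.04. Of all genes, 51.1, 51 and 51.5 percent lay above 0. Some of the 24 held the same value in DFO 1 and DMSO 1, which enters their DFO differences as 0 in the high level. Without the block, 24, 3 and 1 of the 24 lay above 0, with medians of 0.11, -0.12 and -0.11, so the Deferasirox and OICR623 counts rest on the level block. Under DFO 4 of the 24 rose: CDC6, the origin loader (0.28), the sliding clamp PCNA (0.20), the flap nuclease FEN1 (0.20) and the helicase factor CDC45 (0.18). Under Deferasirox CDC6, CDC45 and PCNA rose by 0.27, 0.20 and 0.18, and under OICR623 none was called. Among all genes, 4.6, 5.84 and 0.734 percent were called under DFO, Deferasirox and OICR623. The calls of CDC6 held in all 13 fits that left out 1 array under both compounds, whereas the FEN1 call held in 2. The PCNA call held in 11 under DFO and in 1 under Deferasirox, and the CDC45 call in 7 under DFO and in 8 under Deferasirox.

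RRM2B is a known target of the p53 pathway. Of 14 measured genes of that pathway 2 rose and 1 fell under DFO, 1 rose under Deferasirox and 0 were called under OICR623. The shares of all genes called were 4.6, 5.84 and 0.734 percent. Under DFO, GDF15, a secreted stress factor, rose by 0.79 (limma adjusted p = 0.00031), the CDK inhibitor CDKN1A rose by 0.39 (adjusted p = 0.0014), and the death receptor FAS fell by 0.19 (adjusted p = 0.021), a call that held in 8 of 13 fits that left out 1 array. Under Deferasirox CDKN1A rose by 0.48 (adjusted p = 0.00080) and GDF15 was 0.30 (adjusted p = 0.11). MDM2 differed by 0.06, 0.10 and 0.13 under DFO, Deferasirox and OICR623, none called. In the same cells DDIT4, which is induced by low oxygen and stress, rose by 3.08, 3.03 and 2.14 under DFO, Deferasirox and OICR623. These values are many times the size of any of the 9 genes' differences. The highest differences among all 18404 genes were 3.08, 3.03 and 2.20, so DDIT4 marks the upper end of the response and not a typical gene.

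**Figure D4:**
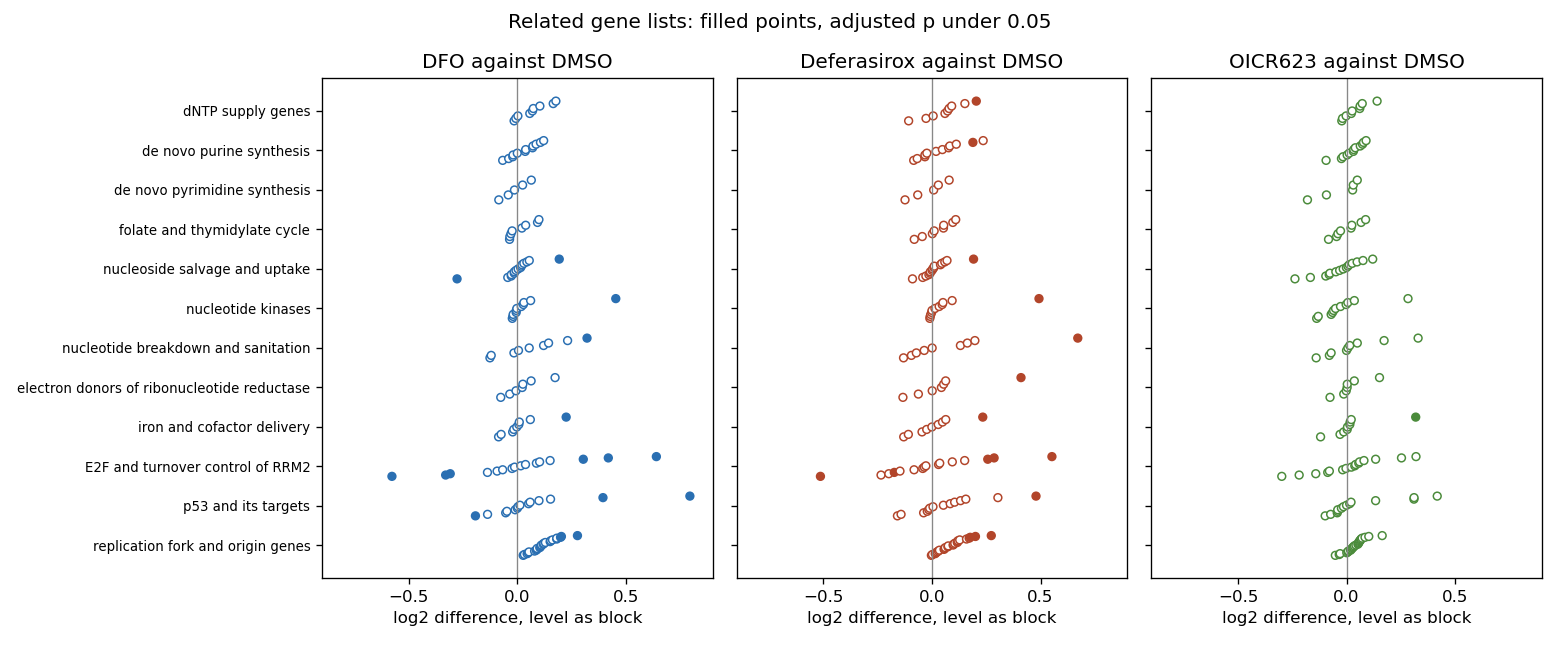
Log2 difference from DMSO (x axis) of every measured gene of the 9 dNTP supply genes and of 11 related lists (y axis), in 1 panel per compound, with the array-median level as a block. Filled points are called at an adjusted p under 0.05. All 24 replication genes lie above 0 under DFO, CCNF is the leftmost point of the E2F and turnover list under DFO and Deferasirox, and 1 point is filled under OICR623.

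Among the 9 genes themselves, arrays were compared after the mean of each level was subtracted. Over the 13 arrays, which share compounds and levels, the highest Pearson correlations were 0.83 for RRM2 with TYMS, 0.83 for RRM2 with TK1 and 0.83 for RRM1 with TYMS, and that of RRM1 with RRM2 was 0.70. RRM2 and RRM2B had -0.01, and the lowest value was -0.24 for TK1 with SAMHD1. Against genes outside the 9, RRM2 had 0.87 with CDC45, 0.82 with CDC6 and -0.85 with CCNF. The 5 genes most like RRM2 by this measure were SLC25A37 (0.96), LIN54 (0.96), CPLANE1 (0.96), CHIC2 (0.96) and PLEKHA1 (0.95). Those most like RRM1 were OSBPL11 (0.94), FBXO28 (0.93), POGLUT3 (0.90), NCAPG2 (0.90) and HDGFL3 (0.90), and those most like RRM2B were DPP8 (0.96), STARD7-AS1 (0.94), STPG2 (0.94), MRPL50 (0.93) and CDC23 (0.93). With 13 arrays and 18404 genes these describe the arrays at hand, and no test was made.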

How the data were processed

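The values the authors deposited are log2 signals by their range, with 1 value for each array and transcript cluster. GCRMA and limma appear per the submitters' processing notes, which give neither version nor role. The probe table named 19158 of 32321 clusters by 1 symbol, 1388 by several and 11775 by none; 19128 were matched to RefSeq names (GRCh38.p14). Of several clusters of a gene (637 genes) the one with the highest mean was kept, which left 18404 genes; no dim genes were removed. There are no detection calls, and precision is limited by how few arrays there are.

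Groups came from the sample titles. Differences were fitted with limma 3.58.1 (R 4.3.3), with group means and the array-median level as a block; a new level began where neighbouring sorted medians lay more than 0.05 apart. The threshold was an adjusted p under 0.05 (Benjamini-Hochberg). Scripts were tested on simulated data. The genes, the lists and the level block were chosen with earlier results of these data known. Named were the 9 genes, up to 4 called genes per list and compound by smallest adjusted p, 13 genes fixed by name (2 of them not analysed here) and the 5 genes most correlated with RRM1, RRM2 and RRM2B; E2F1 and E2F5 under DFO and E2F4 under Deferasirox complete the counts, and other values stand beside a named gene's. Alternatives were no block, a replicate block, other normalizations, filters and row rules, fewer arrays, and each array left out.

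Same-numbered DFO and DMSO arrays deviated together from their group means (correlations 0.945, 0.662, 0.738 and 0.788), so a replicate block was also fitted. Each such pair lies in 1 level. Pairs 1 and 4 are the only such pairs of their levels, so there pairing and level cannot be told apart. Pairs 2 and 3 share the middle level, and arrays of 1 level can deviate together from a group mean over all levels. Differently numbered DFO and DMSO arrays were not compared, so these correlations do not show pairing within a level. Deferasirox and OICR623 numbers gave -0.32 to 0.33 against DMSO and were not taken as pairs.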

Additional observations from a re-analysis of the deposited data

Results flagged for a closer look

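Dixon's rule was applied to 18 groups (the 9 genes in DFO and in DMSO, 4 arrays each). In 12 of them, the array numbered 1 lay further above the other 3 than the 95 percent limit allows. Chance flags about 1 in 20 independent groups, but these groups share the same arrays, so that rate does not apply. The 2 arrays numbered 1 were already set apart by their medians, so the flags restate the high level. All 12 values come from DFO 1 and DMSO 1, the 2 arrays of the high level that share 8530 identical values. In DFO 1 they were 11.97 for RRM1, 9.44 for RRM2B, 12.46 for TYMS, 11.17 for TK1, 9.80 for DUT and 10.82 for SAMHD1. In DMSO 1 they were 11.89 for RRM1, 9.49 for RRM2B, 12.44 for TYMS, 11.15 for TK1, 9.93 for DCK and 10.82 for SAMHD1. The nearest other arrays were 11.07 in DFO and 11.05 in DMSO for RRM1, and 8.02 in DFO and 7.94 in DMSO for RRM2B. The cause of the high level was not tested. RRM2 and DCTD were beyond the limit in neither group.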

How the results depend on the processing

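Results were recomputed under 24 alternatives, including each of the 13 arrays left out. Numbers of called genes are given in the order DFO, Deferasirox and OICR623 against DMSO, which are 847, 1074 and 135 as reported, then OICR623 against DFO (31), Deferasirox against DFO (8) and OICR623 against Deferasirox (16). Without a block they were 45, 43, 7, 0, 0 and 0. With the replicate block in place of the level they were 78, 127, 10, 0, 0 and 0; with the replicate block on the arrays of both groups alone they were 223 for Deferasirox, 46 for OICR623 and 35 for Deferasirox against DFO. In the middle level alone they were 274, 326 and 81, with 0 for Deferasirox against DFO and 7 for OICR623 against Deferasirox. On the arrays of both groups alone with the level block, Deferasirox gave 656 and OICR623 gave 32, and Deferasirox against DFO and OICR623 against Deferasirox gave 0 each. With array medians subtracted in place of a block they were 162, 177, 24, 13, 0 and 0. Leaving out the dimmest 25 percent gave 203 for OICR623, 35 for Deferasirox against DFO and 59 for OICR623 against Deferasirox; a variance trend gave 338 for OICR623, then 58, 85 and 119 between compounds; all rows tested gave 74 for OICR623. Leaving out 1 array gave 494 to 846, 546 to 1066, 33 to 173, 8 to 32, 0 to 10 and 0 to 26.

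Of the 9 genes, the 1 called under Deferasirox became 0 without a block, with either replicate block, in the middle level alone, on both groups alone, with medians subtracted and with all rows tested, and became 2 with a variance trend; leaving out 1 array gave 0 to 2. Under DFO the 0 became 2 with quantile normalization, without the dimmest 25 percent and with a variance trend; leaving out 1 array gave 0 to 1. Among the named genes, signs of called differences turned only where the level was no longer the block. Under Deferasirox without a block these were PRPS2 (-0.10), UCK1 (-0.034), TFRC (-0.0073) and PCNA (-0.0022). With the replicate block they were RRM2 (-0.012), PRPS2 (-0.17), UCK1 (-0.13), TFRC (-0.047) and PCNA (-0.070), and TFRC under OICR623 (-0.12). With the replicate block on both groups alone they were RRM2 (-0.020), PRPS2 (-0.17), UCK1 (-0.13), TFRC (-0.026) and PCNA (-0.074), and TFRC under OICR623 (-0.20). Deferasirox and OICR623 have no array in the high level, where all 9 genes are highest. The replicate blocks group Deferasirox 1, Deferasirox 3 and OICR623 1 with same-numbered DMSO arrays of another level. The cause of the sign changes was not tested. Of the 27 differences of the 9 genes from DMSO, called or not, 12 changed sign without a block, 13 with each replicate block and 4 with medians subtracted, among them RRM2 under OICR623 (-0.10) and TK1 under Deferasirox (-0.06) without a block. With the level kept, the 9 genes' differences from DMSO changed sign in 23 of 540 values, all with a reported size of at most 0.062.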
